A study of Drosophila melanogaster with 6 samples.

Results

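The tetraspanin genes of Drosophila macrophages were followed across the onset of metamorphosis in blood cells sorted from larvae and prepupae. Members were the protein-coding genes of the deposited count table whose name is Tsp followed directly by a digit, together with lbm, and 32 of the 13395 genes of the table met this rule. The cells were hemocytes, the blood cells of the fly, of the genotype Hml-GAL4.delta, UAS-GFP, in which the hemolectin (Hml) driver switches on GFP in plasmatocytes, the macrophage-like class. Hemocytes were rinsed out of L3 wandering larvae (3 libraries) or white prepupae (3 libraries), and GFP-positive cells were collected with a cell sorter, so that both stages carried the same transgenes and only cells sorted for GFP entered the libraries. For the study at large the authors state that macrophages came from flies of either sex. They add that experiments used different flies or cells on separate days. The sources do not say how many animals or which sexes went into each of these libraries, nor what a replicate number stands for, so p-values measure the spread between these libraries, which may be technical.

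Tetraspanins are small proteins that cross the membrane several times and expose a large extracellular loop held together by disulfide bonds. They bind other membrane proteins, among them integrins and proteases, gather them into patches of the plasma membrane, and steer their traffic through endosomes and lysosomes. In mammalian macrophages members of the family take part in adhesion, migration and cell fusion. In the fly, 3 members, Tsp3A, Tsp26A and Tsp86D, form the TspanC8 group, whose proteins bring the ADAM10-type protease Kuzbanian (kuz) to the cell surface and promote cleavage of Notch. Protein and nucleotide sequences of the members were not used here.

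The libraries held 19228352 to 25958543 counts. Levels are given as CPM, counts per 1000000 counts of a library after scaling by TMM factors, and levels of different genes are compared only as CPM per kb of exonic length. Genes were tested between the stages with edgeR's quasi-likelihood test and called at a false discovery rate (FDR) below 0.05, and all log2 fold changes are prepupal over larval. In bulk samples such as these, fewer cells of a type and less RNA per cell cannot be told apart. Of 9 plasmatocyte markers, 8 were lower in prepupae and crq was higher, beside 27.3% lower and 26.6% higher of all 7914 tested genes. The summed level of the 9 markers went from 17011 to 25476 CPM in larval libraries to 4502 to 7009 CPM in prepupal ones. Hml itself fell from 4912 ± 1593 to 149 ± 87.6 CPM (SD, n = 3 each). The counts of the other markers are to be read beside the same shares. The 4 crystal cell genes were all lower, and 1 of 3 tested lamellocyte genes (PPO3) was higher and 1 (cher) lower. Of 5 tested fat body genes 2 were higher and 1 lower, with a summed level of 27.0 to 34.8 CPM. None of 6 salivary gland or 5 muscle genes was called by edgeR, and 0 of them had an unadjusted p below 0.05. The part of these shifts in the differences described here was not tested.

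Only part of the family was expressed at a level that could be tested. Of the 32 genes, 15 passed the filter on low counts, with 12 to 8654 counts per library, and 17 did not. In both stages the transcripts of the family were dominated by a single gene, Tsp42Ee (FBgn0029506). It reached 189, 195 and 215 CPM per kb in larval replicates 1, 2 and 3 and 266, 293 and 286 CPM per kb in the prepupal replicates 1, 2 and 3. This was 48.8% ± 1.24 of the summed CPM per kb of all members in larvae and 50.9% ± 1.43 in prepupae (SD, n = 3 each). Its level per kb was 3.64 times that of the next member, Tsp96F, in larvae and 3.47 times that of the next member, Tsp86D, in prepupae. Exonic lengths were known for 7873 of the tested genes, of which 95.9% had a lower mean level per kb than Tsp42Ee.

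**Figure D1:**
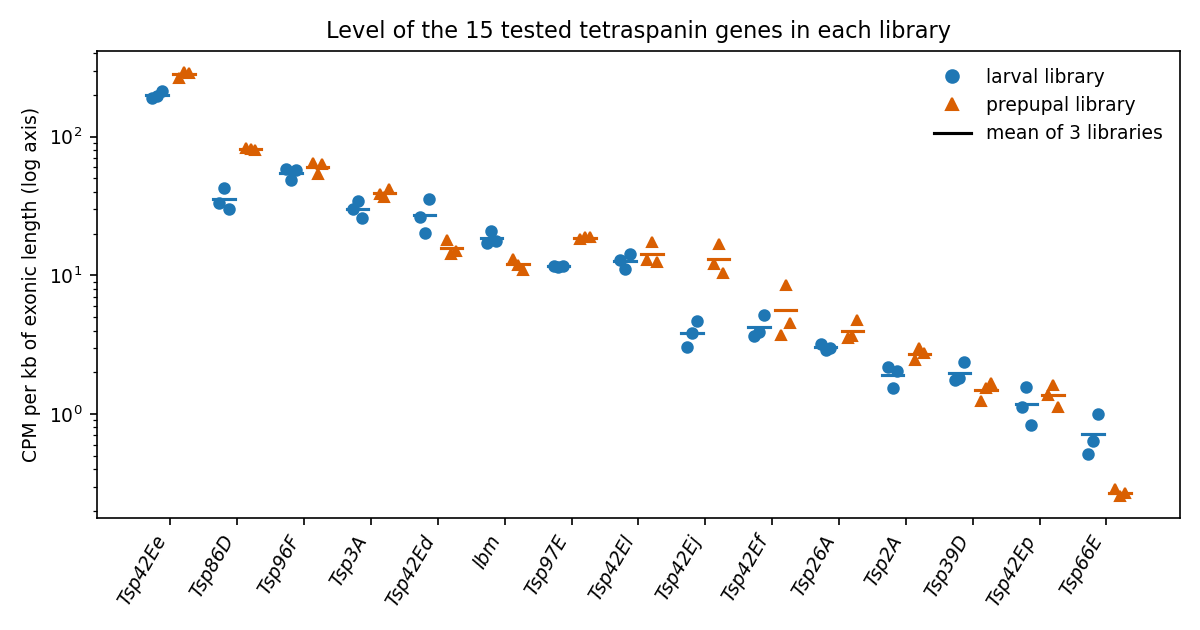
Level of each of the 15 tested tetraspanin genes in each library, as CPM per kb of exonic length on a log axis, with circles for the 3 larval and triangles for the 3 prepupal libraries and short lines for their means. Tsp42Ee lies above all others in every library, at 189 to 293 CPM per kb. The triangles of Tsp42Ee, Tsp86D, Tsp3A, Tsp97E, Tsp42Ej, Tsp26A and Tsp2A lie above their circles, and those of Tsp42Ed, lbm, Tsp39D and Tsp66E below.

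By the mean over all libraries, 7 genes came after Tsp42Ee, namely Tsp86D, Tsp96F, Tsp3A, Tsp42Ed, lbm, Tsp97E and Tsp42El. Their stage means lay between 11.6 and 81.1 CPM per kb. Tsp42Ej came next, with a mean of 3.85 CPM per kb in larvae. In prepupae its mean was 13.1 CPM per kb, above that of lbm at 12.0. The 5 highest members of a library held 85.0% to 88.1% of the summed CPM per kb. Tsp96F and Tsp86D changed places between the stages. In larvae Tsp96F stood at 48.8 to 58.5 CPM per kb and Tsp86D at 30.3 to 42.9 CPM per kb. In prepupae Tsp86D stood at 80.2 to 82.3 CPM per kb and Tsp96F at 54.1 to 64.4 CPM per kb. The ranges of both genes did not overlap within either stage. Tsp86D and Tsp3A, by contrast, had overlapping ranges in larvae (25.98 to 34.1 for Tsp3A) and separate ones in prepupae (36.8 to 41.6 for Tsp3A). Within each larval library, however, Tsp86D was the higher of the pair. It had 33.5, 42.9 and 30.3 CPM per kb in larval replicates 1, 2 and 3, against 30.3, 34.1 and 25.98 for Tsp3A. At the lower end of the tested genes, Tsp26A, Tsp2A, Tsp39D, Tsp42Ep and Tsp66E had means of 0.272 to 3.99 CPM per kb.

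The family as a whole took 0.0741% to 0.0830% of the counts of larval and 0.0888% to 0.0949% of the counts of prepupal libraries. Summed over all 32 members, the level was 724 ± 23.4 CPM in larvae and 974 ± 12.8 CPM in prepupae (SD, n = 3 each), a ratio of 1.34. With CPM from total counts alone the ratio was 1.17. Without Tsp42Ee, whose level was the highest, it was 1.30 with TMM scaling. No test was made of this sum.

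**Figure D2:**
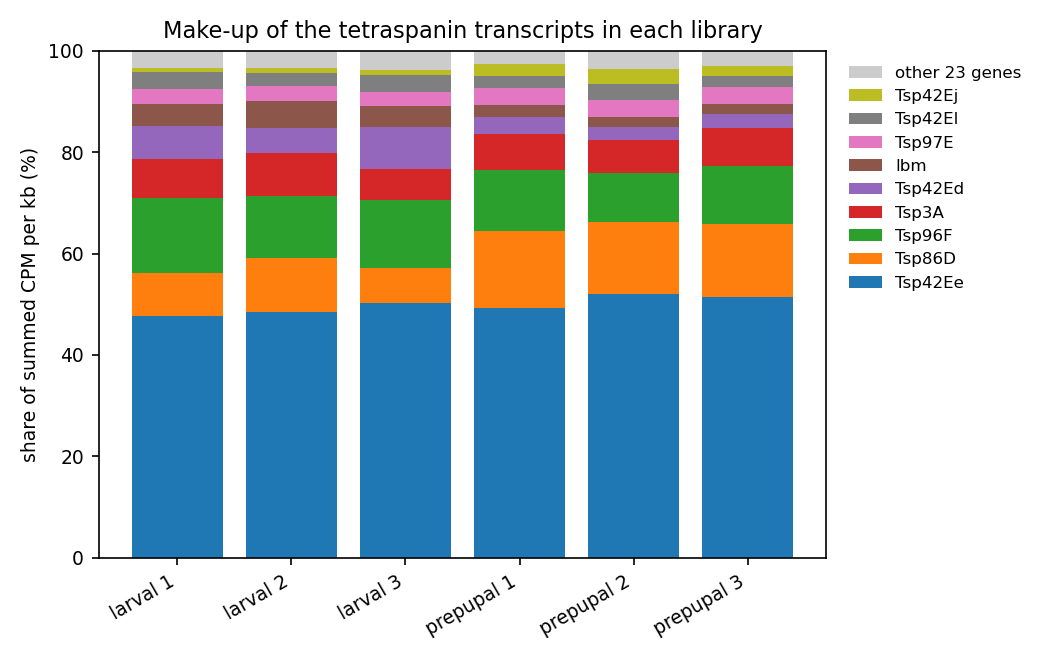
Share of each of the 9 tetraspanin genes with the highest mean level, and of the other 23 together, in the summed CPM per kb of all members, as stacked bars for each library. Tsp42Ee fills 47.7% to 51.9% of every bar, and the share of Tsp86D is 7.08% to 10.7% in larval and 14.4% to 15.3% in prepupal libraries.

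Between the stages, 8 of the 15 tested tetraspanin genes were called, or 53.3%, beside 53.9% of all 7914 tested genes. Higher in prepupae were 5, or 33.3% (26.6% of all tested genes), namely Tsp42Ej, Tsp86D, Tsp97E, Tsp42Ee and Tsp3A. Lower were 3, or 20.0% (27.3% of all tested genes), namely Tsp66E, Tsp42Ed and lbm. A change of at least 2-fold was met by 3 genes, Tsp42Ej, Tsp86D and Tsp66E, or 20.0%, beside 20% of all tested genes. The shares lay near those of all tested genes, and nothing particular to the family is read from the number of calls. The median log2 fold change was 0.37 over the tested members and -0.03 over all tested genes. The stages did not overlap in CPM for 11 of the 15 genes (73.3%, beside 63% of all tested genes), the 8 called ones and Tsp26A, Tsp2A and Tsp39D. At an unadjusted p below 0.05 there were 9.

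**Figure D3:**
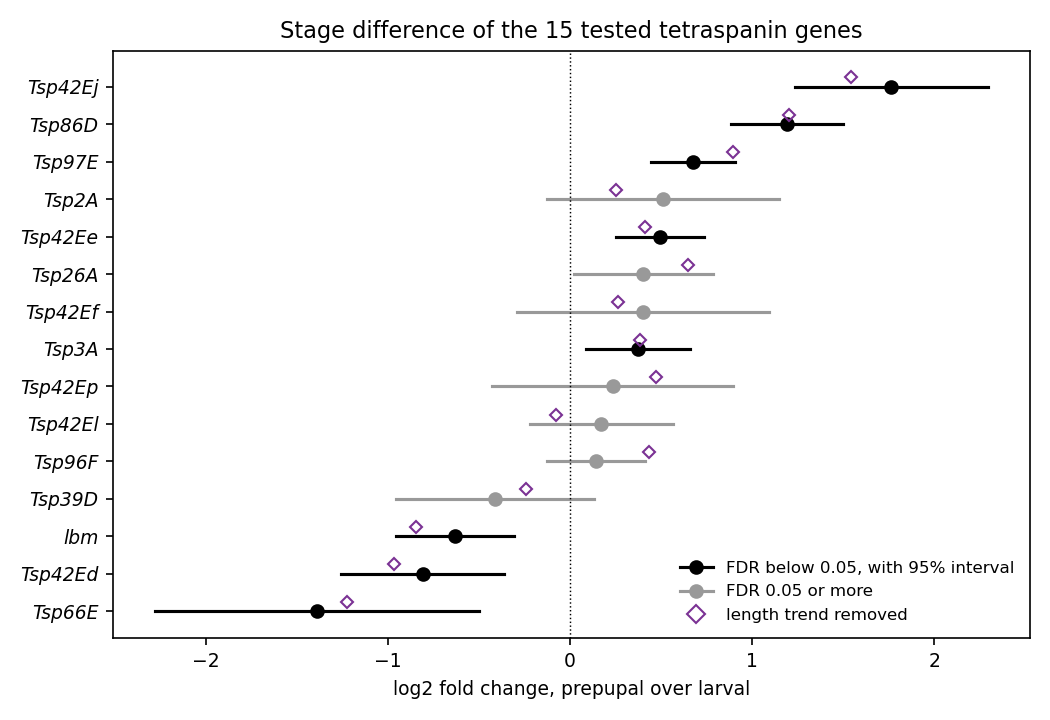
Log2 fold change (prepupal over larval) of the 15 tested tetraspanin genes with 95% intervals from edgeR, black for genes with an FDR below 0.05 and grey for the others, and open diamonds for the value after removal of each library's length trend. Tsp42Ej at 1.76 and Tsp86D at 1.19 lie farthest to the right, and Tsp66E at -1.39 farthest to the left.

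The steepest rise belonged to Tsp42Ej (FBgn0033132), also known as Sunglasses, a lysosomal tetraspanin that in photoreceptors takes part in the degradation of rhodopsin. It lies on the plus strand of chromosome 2R of dm6, from 7040136 to 7042762, with 1 annotated transcript of 4 exons. Its CPM were 3.38, 4.32 and 5.20 in larval replicates 1, 2 and 3 and 13.4, 18.8 and 11.6 in the prepupal replicates 1, 2 and 3. Every prepupal library thus lay above every larval one. The log2 fold change came to 1.76 ± 0.24 (SE; FDR = 0.00029 by edgeR), a 3.40-fold higher level. The last 107 exonic bp of Tsp42Ej are shared with its neighbour Tsp42Ek on the same strand, which had 1 to 4 counts per library against 93 to 379 for Tsp42Ej.

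Of the 3 TspanC8 genes, Tsp86D and Tsp3A were called higher in prepupae and Tsp26A was not called. Tsp86D (FBgn0037848, plus strand of chromosome 3R, 10868708 to 10870555) had 59.999, 76.8 and 54.3 CPM in larval replicates 1, 2 and 3 and 147, 145 and 144 CPM in the prepupal replicates 1, 2 and 3. The prepupal libraries were nearly alike (a coefficient of variation of 1.33%), the larval ones less so (18.4%), and the stages did not overlap. Its log2 fold change came to 1.19 ± 0.14 (SE; FDR = 0.00013 by edgeR), a 2.28-fold higher level. Tsp3A (FBgn0040334, minus strand of chromosome X, 2617758 to 2619738) went from 54.4, 61.3 and 46.7 CPM to 69.3, 66.1 and 74.9 CPM in replicates 1, 2 and 3 of the larval and prepupal libraries. The stages were apart, but by a narrow margin, and the log2 fold change came to 0.37 ± 0.13 (SE; FDR = 0.033 by edgeR). This call was lost with a smaller value under scaling by total counts (0.18, FDR = 0.25) and without larval replicate 3 (0.29, FDR = 0.12) or prepupal replicate 3 (0.32, FDR = 0.10). It was also lost at a value close to the main one without the low-count filter (0.36, FDR = 0.054), without larval replicate 1 (0.38, FDR = 0.087) and without prepupal replicate 1 (0.38, FDR = 0.067).

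The third gene of the group, Tsp26A (FBgn0031760, plus strand of chromosome 2L, 6000228 to 6003738), was weakly expressed. It had 9.63, 8.72 and 9.10 CPM in larval replicates 1, 2 and 3, against 10.6, 11.1 and 14.5 CPM in their prepupal counterparts. The libraries of the stages did not overlap, yet the gene was not called, with a log2 fold change of 0.40 (95% interval 0.02 to 0.78, FDR = 0.070, edgeR). With the trend of counts along transcript length taken out of each library it was called, at 0.65 (FDR = 0.0054). Tsp26A shares 165 exonic bp with Gal, a beta-galactosidase gene, on the opposite strand, and the libraries keep no strand. Each library had 19137 to 65850 counts of Gal and 189 to 277 of Tsp26A. Gal rose by 1.67 on the log2 scale (FDR = 5.0e-05, edgeR), and its part in the value of Tsp26A was not tested.

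Summed over the group, the TspanC8 level was 66.9, 79.9 and 59.3 CPM per kb in larval replicates 1, 2 and 3, against 124, 121 and 127 CPM per kb in their prepupal counterparts. The group made up 16.9% ± 3.01 of the family's summed CPM per kb in larvae and 22.5% ± 0.819 in prepupae (SD, n = 3 each). Within it, the share of Tsp86D was 50.05% to 53.7% in larval and 63.3% to 66.7% in prepupal libraries. No test was made of these sums, and of the 3 genes Tsp86D alone had a higher mean share of the family's summed level in prepupae (14.7%, against 8.73% in larvae), while the mean share of Tsp3A went from 7.40% to 7.06% and that of Tsp26A from 0.740% to 0.722%. Larval libraries held Tsp86D and Tsp3A at more even levels per kb than prepupal ones.

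The gene of their protease partner was not called. It had 299 ± 112 CPM in larvae and 234 ± 43.1 CPM in prepupae (SD, n = 3 each), and kuz had a log2 fold change of -0.35 (95% interval -0.94 to 0.23, FDR = 0.28, edgeR), which turned to 0.25 without a call once the length trend was removed. Its substrate N, the Notch receptor, was lower in prepupae with -1.04 (FDR = 0.013), although its libraries overlapped between the stages, and the Notch ligand Ser fell by 3.19. Among the 9 genes listed for this protease and for Notch processing, 8 were tested, with a median log2 fold change of -0.24. Of these, 3 were higher (Psn, aph-1 and pen-2, which encode subunits of gamma-secretase) and 2 lower (N and Ser). The shares of all tested genes were 26.6% and 27.3%. Nct, which also encodes a gamma-secretase subunit, was not called, with a value of -0.19 (FDR = 0.20, edgeR). With the length trend removed, 2 were higher and 1 lower, as N and aph-1 were then not called. Of all 7914 tested genes, 2314 were then higher and 1746 lower.

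Tsp97E (FBgn0039465, minus strand of chromosome 3R, 26961064 to 26964817), which RefSeq lists with the synonym Tspan31, showed the least spread of all tested members in larvae. Its larval libraries lay between 30.4 and 31.0 CPM and its prepupal libraries between 48.1 and 49.5 CPM. The log2 fold change came to 0.68 ± 0.10 (SE; FDR = 0.00060 by edgeR), and 0.89 with the length trend removed. In the order of levels per kb, Tsp97E was number 8 in larvae and number 5 in prepupae.

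The dominant gene, Tsp42Ee (plus strand of chromosome 2R, 7012254 to 7018362, 2 annotated transcripts of 5 exons), was itself higher in prepupae. It had 277, 285 and 314 CPM in larval replicates 1, 2 and 3, against 389, 428 and 418 CPM in their prepupal counterparts. All prepupal libraries exceeded all larval ones, and the log2 fold change came to 0.50 ± 0.11 (SE; FDR = 0.0038 by edgeR), a 1.41-fold higher level. The summed level of the other members was higher too, at 209 ± 3.62 CPM per kb in larvae and 271 ± 2.12 CPM per kb in prepupae (SD, n = 3 each).

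Tsp96F (FBgn0027865, minus strand of chromosome 3R, 25872900 to 25881427) was among the highest members without a call. It had 195, 163 and 191 CPM in larval replicates 1, 2 and 3, against 215, 181 and 211 CPM in their prepupal counterparts. In both stages replicate 2 was the lowest, and the stages overlapped. The log2 fold change was 0.14 (95% interval -0.12 to 0.41, FDR = 0.34, edgeR). Tsp96F has 3343 exonic bp, the longest of the tested members, and with the length trend removed it was called higher, at 0.43 (FDR = 0.0034). Under scaling by total counts its value was -0.05 and not called. Longer genes tended to lower fold changes in these data at large (Spearman -0.40 across 7873 genes, which are not independent replicates). Across the 15 tested members the coefficient was -0.09. The part of length in the value of Tsp96F was not tested.

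Of the genes that fell, Tsp66E (FBgn0035936, plus strand of chromosome 3L, 8912499 to 8932065) changed most, at a low level. It had 33, 33 and 54 counts in larval replicates 1, 2 and 3, against 12, 12 and 12 counts in their prepupal counterparts, which is 1.20, 1.499 and 2.32 CPM against 0.675, 0.594 and 0.630 CPM. The larval libraries were all above the prepupal ones and varied more. The log2 fold change came to -1.39 ± 0.40 (SE; FDR = 0.014 by edgeR), a 2.62-fold lower level. Without larval replicate 3, the highest library, it was -1.07 and not called (FDR = 0.080). Tsp66E shares 173 exonic bp with mfr on the opposite strand, a gene with 0 to 3 counts per library.

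Tsp42Ed (FBgn0029507, minus strand of chromosome 2R, 7009498 to 7011739) fell from 32.9, 25.2 and 44.7 CPM in larval to 22.3, 17.7 and 18.7 CPM in the prepupal replicates 1, 2 and 3. The lowest larval and the highest prepupal library lay close together, but did not overlap. The log2 fold change came to -0.81 ± 0.20 (SE; FDR = 0.0074 by edgeR), and -0.97 with the length trend removed.

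The gene lbm (late bloomer, FBgn0016032, plus strand of chromosome 2R, 7049238 to 7051964) is known from motor neurons, where it promotes the formation of synapses. In hemocytes it had 18.8 to 23.1 CPM in larval and 12.0 to 14.5 CPM in prepupal libraries, a log2 fold change of -0.63 ± 0.15 (SE; FDR = 0.0050 by edgeR). With the length trend removed it was -0.85. The 5 neuronal markers had a summed level of 3.50 to 7.21 CPM in larval and 2.77 to 3.54 CPM in prepupal libraries. Of the 2 that could be tested, 1, fne, was lower, beside 27.3% of all tested genes. With the replicate number as a block both fne and elav were lower, beside 2410 of all 7914 tested genes. The markers did not move alike. The RNA-binding protein gene elav had 29 to 125 counts per library, and the synaptic gene nSyb had at most 4. The synaptic genes brp (1 to 2 counts in larval and 2 to 10 in prepupal libraries) and Syt1 (2 to 9 and 5 to 12) were too low to be tested. Their part in the value of lbm was not tested.

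The tested members without a call other than Tsp96F and Tsp26A had moderate to low levels. Tsp42El had a log2 fold change of 0.17 (95% interval -0.22 to 0.56), and Tsp42Ef one of 0.40 (-0.29 to 1.09), which rested on prepupal replicate 2 with 11.5 CPM beside 5.005 and 6.09 CPM in the other prepupal libraries. Without that library Tsp42Ef lay at -0.04. Tsp42Ep had a value of 0.23 (-0.43 to 0.90). On the opposite strand, 889 of its 2892 exonic bp are shared with Tsp42Eo, a gene without a row in the count table. Tsp39D had a value of -0.41 (-0.96 to 0.13). All of these intervals included 0.

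Tsp2A is the fly tetraspanin needed for smooth septate junctions, the seals between gut epithelial cells. It had 35 to 63 counts per library, from 1.59 to 2.25 CPM in larvae and from 2.53 to 3.12 CPM in prepupae. The stages did not overlap, but it was not called, with a log2 fold change of 0.51 (95% interval -0.13 to 1.14, FDR = 0.16, edgeR). The genes of its partners in these junctions, Ssk and mesh, had 5 to 21 counts per library and log2 fold changes of 0.82 and 0.72 without a call, and the third, hoka (CG13704 in the table), had at most 2 counts. Of the 5 midgut markers found in the table, the summed level was 0.800 to 1.33 CPM in larval and 1.24 to 2.00 CPM in prepupal libraries. The highest of them, the trypsin gene betaTry, had 9 to 11 counts in larval and 11 to 20 in prepupal libraries, with no overlap in CPM, and a log2 fold change of 0.96 without a call (FDR = 0.089, edgeR). LManVI had 2 to 14 counts per library, and mex1 at most 4. The markers did not all move alike. The mean of alphaTry was 0.259 CPM in larvae and 0.246 CPM in prepupae, and that of Amy-p 0.041 and 0.036 CPM. The part of such cells in the Tsp2A counts was not tested.

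A single cluster at 42E on chromosome 2R, from 6992676 to 7066113 of dm6, a span of 73.4 kb, holds 16 of the 32 genes, 13 on the plus and 3 on the minus strand. Of these, 7 passed the filter on low counts. Tsp42Ed, Tsp42Ee and Tsp42Ef, which lie next to each other, passed it, as did the neighbours Tsp42El and lbm and, each between genes that failed it, Tsp42Ej and Tsp42Ep. Tsp42Eg, Tsp42Eh and Tsp42Ei, between Tsp42Ef and Tsp42Ej, had at most 4 counts in any library. Tsp42Eo, which overlaps Tsp42Ep, has no row in the count table and is not among the genes of the cluster counted here. Within the cluster 2 genes were called higher and 2 lower, or 4 of the 7 tested, beside 53.9% of all tested genes.

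**Figure D4:**
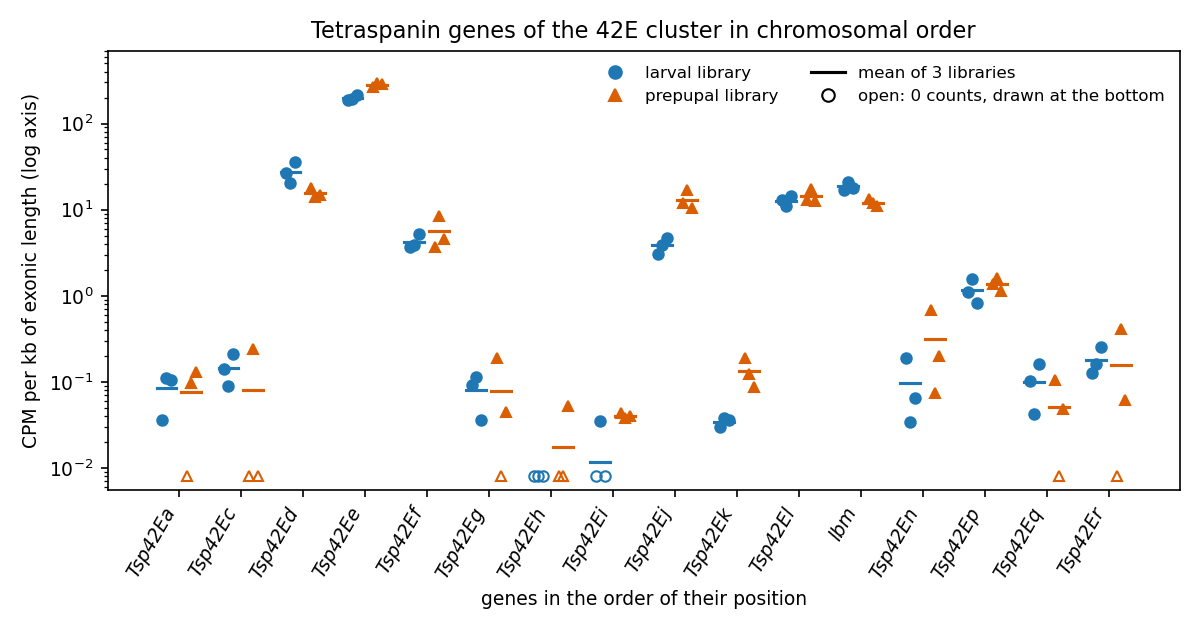
Level of the 16 tetraspanin genes of the 42E cluster in their order along the chromosome, as CPM per kb of exonic length on a log axis, with circles for larval and triangles for prepupal libraries, short lines for means, and open symbols at the bottom for libraries with 0 counts. Tsp42Ed, Tsp42Ee, Tsp42Ef, Tsp42Ej, Tsp42El, lbm and Tsp42Ep stand at 0.831 CPM per kb or more in every library, and the other 9 genes at 0.679 or less.

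The neighbours Tsp42Ed and Tsp42Ee moved in opposite directions. They lie head to head on opposite strands, with 514 bp between them. The ratio of Tsp42Ee to Tsp42Ed in CPM per kb was 7.17, 9.67 and 5.99 in larval replicates 1, 2 and 3, against 14.9, 20.7 and 19.1 in their prepupal counterparts. This ratio is free of library scaling, and it was higher in every prepupal than in every larval library. A like contrast held between Tsp42Ej and lbm, which lie 3 genes apart in the cluster. Their ratio in CPM per kb was 0.177 to 0.263 in larval and 0.908 to 1.42 in prepupal libraries. Both pairs were chosen after their values were seen, and no test was made of the ratios. The cluster without Tsp42Ee had 68.8 ± 9.19 CPM per kb in larvae and 62.9 ± 8.20 CPM per kb in prepupae (SD, n = 3 each), a difference within the spread of the libraries.

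The 17 members below the filter held 247 of the 108260 counts on the family, or 0.228%. Their mean was at most 0.616 CPM in either stage, and no library had more than 18 counts on any of them. The highest was Tsp29Fb, with 11, 8 and 8 counts in larval replicates 1, 2 and 3, against 9, 8 and 18 in their prepupal counterparts. Its 62 counts over all libraries lay below the 156 of Tsp66E, the tested member with the fewest counts, while its mean level per kb in prepupae was above that of Tsp66E (0.501 against 0.272 CPM per kb). Tsp42En, Tsp42Ea, Tsp42Er, Tsp5D, Tsp42Ec, Tsp42Eg, Tsp42Ek, Tsp42Eq and Tsp47F had 11 to 33 counts over all libraries together. Tsp68C, Tsp33B, Tsp42A, Tsp42Ei, Tsp29Fa, Tsp74F and Tsp42Eh had 1 to 8. Tsp42A and Tsp42Eh had 0 counts in all larval libraries, which allows up to 0.109 to 0.136 CPM per library (3 counts, counting error only), and at most 3 counts in a prepupal library. No stage difference was detectable for these genes at this depth, and fits without the filter (17 genes) or with DESeq2 (10 genes) called none of them, with 1 (Tsp42A) and 0 at an unadjusted p below 0.05.

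A gene of the tetraspanin superfamily with another kind of name, TM4SF (FBgn0020372), was looked at beside the members. It had 87, 55 and 133 counts in larval replicates 1, 2 and 3, against 7, 5 and 2 counts in their prepupal counterparts, and the stages were far apart. The log2 fold change came to -3.91 ± 0.52 (SE; FDR = 0.00027 by edgeR), beyond that of any of the 15 tested members, at a larval level of 3.79 ± 1.70 CPM (SD, n = 3).

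Partners of tetraspanins were compared in the same fit. The 7 integrin genes encode adhesion receptors that tetraspanins bind in mammals. Of these, 2 were higher (if with a log2 fold change of 3.11 and scb) and 2 lower (Itgbn with -3.16 and ItgaPS5 with -2.52). The shares of all tested genes were 26.6% and 27.3%. The beta subunit gene mys was not called (0.24, 95% interval -0.10 to 0.58, FDR = 0.21, edgeR). With the replicate number as a block, mys was called higher (0.25, FDR = 0.044, edgeR), as it was with the length trend removed (0.64, FDR = 0.00077). The gene mew was also called higher in both fits. Higher integrin genes thus numbered 4 in each, beside 2326 and 2314 of all 7914 tested genes. The ESCRT machinery sorts membrane proteins into multivesicular bodies. Of its 15 listed genes, 7 were higher and none was lower by edgeR, beside 26.6% and 27.3% of all tested genes. Lower at an unadjusted p below 0.05 (edgeR) was 1, Stam. With the replicate block 9 were higher and 1 (Stam) lower, beside 2326 and 2410 of all 7914 tested genes. With the length trend removed 8 were higher and 1 (shrb) lower, beside 2314 and 1746. In the main fit the log2 fold changes of the 15 genes ran from -0.29 for Stam to 0.99 for Vps2, with a median of 0.30.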

How the data were processed

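RNA of GFP-positive hemocytes was made into mRNA libraries that keep no strand information and sequenced as single reads of 50 bp. According to the methods, the authors trimmed adapters with trimmomatic and aligned reads with STAR to dm6 (Ensembl annotation). The submitters' processing notes also name featureCounts, but the sources do not give its strand setting. The authors deposited unnormalized read counts per gene, 1 column for each library. Columns were matched to samples by name, and stages were taken from the labels.

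The stages were compared with edgeR 4.0.16 under R 4.3.3, using TMM scaling, the filterByExpr filter (minimum count 10) and the quasi-likelihood F test. FDR values are Benjamini-Hochberg adjusted over all 7914 tested genes. Standard errors are the log2 fold change divided by the square root of F. Fewer counts give wider errors, and library totals are given with the results. Exonic lengths came from Ensembl release 115, in which all 32 members had identical coordinates. The members and lists were chosen with earlier results of these data known. Every member is accounted for, and values per library are given for members called with at least 2-fold, the 5 highest per kb and the TspanC8 genes. Ratios of neighbouring genes were added after seeing the data. Of the related gene lists (not the cell type markers), kuz, N, mys and those that changed at least 4-fold were to be named, and other genes are named where a list is described.

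The alternatives tried were scaling by total counts, by upper-quartile factors or by size factors of DESeq2, dropping the filter or asking for 10 counts on average, DESeq2 1.42.0 or limma-voom (limma 3.58.1) as the test, an FDR below 0.01, a 2-fold minimum, a replicate block, removal of each library's length trend (loess of log2 CPM on log2 length, span 0.5, as an offset) and leaving out each library. Larval and prepupal libraries of the same number deviated together from the means of their stages (r across genes of 0.28, 0.30 and 0.10 for numbers 1, 2 and 3), each above 0.1, the last narrowly, while no source says what a number stands for. The scripts were tested on simulated data.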

Additional observations from a re-analysis of the deposited data

How the results depend on the processing

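The 15 tested genes were refitted under 15 alternatives each, 225 fits in all, of which 211 kept their direction and their side of the threshold, 7 lost a call, 2 gained one and 5 turned. The lost calls were those of Tsp3A (6) and Tsp66E (1), the gained ones those of Tsp96F and Tsp26A with the length trend removed. The turned values belonged to genes without a call. Tsp96F lay at -0.054 and Tsp42El at -0.033 under scaling by total counts, which moves the median over all tested genes from -0.026 to -0.22. Tsp42El lay at -0.076 with the length trend removed. With each library left out in turn, Tsp42El ranged from -0.00079 to 0.27 and Tsp42Ef from -0.042 to 0.62. The cause was not tested. A 2-fold minimum left 3 called genes, 2 higher and 1 lower, beside 20% of all tested genes. With each library left out, 6 to 8 genes were called, 4 to 5 of them higher and 2 to 3 lower. Of all 8065 to 8151 genes tested in those fits, 1614 to 2322 were higher and 1637 to 2230 lower. With the length trend removed, 10 were called, 7 higher and 3 lower, beside 2314 higher and 1746 lower of all 7914 tested genes. The replicate block left 8 called, 5 higher and 3 lower, beside 2326 and 2410 of all 7914. This block changed no call of a member. The ratio of the summed CPM was 1.17 with total counts. Genes with fewer than about 10 counts per library in both stages were beyond the reach of the test.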
